A study of Arabidopsis thaliana with 24 samples.

Results

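Seedlings that cannot perceive brassinosteroids were compared with seedlings that cannot make them, after both had been given brassinolide (BL), the most active brassinosteroid of Arabidopsis thaliana. The tested plants were the bri1-701 brl1 brl3 triple mutant, which carries mutations in the receptor gene BRI1 and in its homologues BRL1 and BRL3. They were set against the cpd mutant, which lacks a functional cytochrome P450 of brassinosteroid synthesis but keeps its receptors. All plants were 24 days old, and the comparison took 3 BL-treated triple mutant libraries and 3 BL-treated cpd libraries of mRNA from seedlings, 6 of the 24 libraries of the series. Side by side with them stood 3 untreated triple mutant and 3 untreated cpd libraries of the same age, and BL-treated triple mutant and cpd seedlings of 7 days. The series held 8 groups of 3 libraries. No wild type was among the samples used here, so each difference is one between 2 mutants. The labels and the design text give no dose of BL, no length of treatment, no number of plants per library and no position of a mutation. A mutated gene can therefore still be counted through its intact parts. Whether the 3 libraries of a group are from different plants is not said, and the p-values measure only how these libraries vary, which may be technical variation.

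Brassinosteroids (BRs) are steroid hormones that drive cell elongation and division in shoots and roots. BL binds the extracellular part of BRI1, BRL1 or BRL3, and the receptor with its co-receptor BAK1 starts a phosphorylation relay that inactivates the kinase BIN2. The transcription factors BZR1 and BES1 and their homologues then repress genes of BR synthesis, which closes a negative feedback loop, and activate genes of growth and of the cell wall. In cpd seedlings supplied BL can engage this relay, whereas the triple mutant lacks functional receptors of that family.

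The letters bound by BZR1 and BES1 are known from this species as the BR response element, searched here as CGTGTG or CGTGCG, and as the G-box CACGTG, both on either strand and allowed to overlap. In the 250 bases before the annotated gene start, the BR response element was present in 6.71% of 27443 protein-coding genes of the RefSeq annotation of TAIR10.1. Among genes at least 2-fold higher in the BL-treated triple mutant than in BL-treated cpd it was present in 64 of 486 such windows (13.2%), and among genes at least 2-fold lower in 10 of 284 (3.52%), against 6.99% of the 19202 windows of all genes tested. The corresponding shares for the G-box were 11.3%, 4.23% and 7.42%. These shares are a description, and a match is not shown to be a bound site. Of the 12 genes with the largest rises named below, 2 held the BR response element, ACS11 and BEH2, and BEH2 alone held the G-box. Of the 12 with the largest falls, 1 held the BR response element, XTH8, and 0 the G-box. The windows of 4 genes with large differences are printed 5′ to 3′ along the gene's own strand, with matches to either motif in capitals. BEH2 encodes a homologue of BES1 and BZR1 (window chr4:17334356-17334605, minus strand) and ACS11 encodes a synthase of the ethylene precursor (window chr4:4886712-4886961, plus strand). CPD (window chr5:1706949-1707198, minus strand) and BR6OX2 (window chr3:11810476-11810725, plus strand) belong to BR synthesis. None of the 4 windows overlapped an annotated exon.
BEH2: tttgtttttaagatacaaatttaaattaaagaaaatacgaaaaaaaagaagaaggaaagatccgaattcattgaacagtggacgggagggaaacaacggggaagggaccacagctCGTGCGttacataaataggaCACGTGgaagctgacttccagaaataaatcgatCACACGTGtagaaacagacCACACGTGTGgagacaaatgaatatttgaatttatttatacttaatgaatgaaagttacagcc
ACS11: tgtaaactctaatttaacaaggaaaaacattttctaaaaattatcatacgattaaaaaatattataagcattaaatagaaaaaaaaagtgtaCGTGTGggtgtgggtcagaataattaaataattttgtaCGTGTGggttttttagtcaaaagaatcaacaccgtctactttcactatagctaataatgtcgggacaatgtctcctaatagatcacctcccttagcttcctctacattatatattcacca
CPD: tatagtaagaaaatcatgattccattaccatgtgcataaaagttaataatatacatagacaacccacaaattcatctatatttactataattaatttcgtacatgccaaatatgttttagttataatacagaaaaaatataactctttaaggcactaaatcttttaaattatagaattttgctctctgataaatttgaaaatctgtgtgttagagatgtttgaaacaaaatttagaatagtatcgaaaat
BR6OX2: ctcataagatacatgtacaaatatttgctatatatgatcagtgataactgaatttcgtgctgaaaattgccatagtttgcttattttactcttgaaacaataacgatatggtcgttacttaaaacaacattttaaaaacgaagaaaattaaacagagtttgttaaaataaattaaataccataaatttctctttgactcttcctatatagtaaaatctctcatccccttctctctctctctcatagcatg
The BEH2 window held 4 matches to the BR response element, the farthest 135 bases before the gene start, and 3 to the G-box. The ACS11 window held 2 matches to the BR response element, 158 and 120 bases before the start. In the CPD and BR6OX2 windows these letters were not found, nor in those of the 7 BR synthesis genes that were higher or of the 22 SAUR genes that were lower in the triple mutant.

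The 6 libraries held 17623019 to 20352719 counts, and all 12 libraries of 24 days held 17243503 to 20563151. Of 32678 loci in the table, 19731 passed the filter on low counts. Levels are given as CPM, counts scaled to an equal library total, after TMM scaling, which corrects for differences in library composition. A gene with 0 counts in a library may have had up to 3, which is 0.147 to 0.17 CPM in these 6 libraries, and this limit covers counting error only. Markers of roots, flower organs and green tissue were summed in each library. The 19 root markers together gave 261, 319 and 361 CPM in the BL-treated triple mutant and 212, 218 and 309 CPM in BL-treated cpd. Replicate 3 had the highest root sum in each of the 4 groups of 24 days. Of 15 root markers tested, 7 were higher and 1 was lower in the BL-treated triple mutant (median log2 1.48), and none of the 7 passed in every alternative processing. The 8 flower organ markers gave 12.6, 13.6 and 5.07 CPM in the BL-treated triple mutant and 5.12, 7.94 and 7.28 CPM in BL-treated cpd, and none passed the test (median log2 1.02). No marker of either list was at 0 in all 3 libraries of a group, and the part of tissue makeup in the differences below was not tested. The 27 photosynthesis genes gave 13450 to 15970 CPM in the triple mutant and 14650 to 17610 CPM in cpd, so green tissue was present throughout. In seedlings taken as bulk samples, fewer cells of a type and less RNA per cell cannot be told apart.

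With BL, the receptor mutant had far higher transcript levels of BR synthesis genes and lower levels of growth genes, above all the listed SAUR genes, than the synthesis mutant. In the edgeR quasi-likelihood test, Benjamini-Hochberg adjusted, 1899 genes (9.62% of those tested) were higher and 1755 (8.89%) were lower in the triple mutant, together 18.5%. By at least 2-fold, 505 were higher and 290 lower. The libraries of the 2 genotypes did not overlap for 31.7% of all genes tested. Without the term for the replicate number the counts were 1104 higher and 1081 lower. They also depended on single libraries, with 1110 and 843 without triple mutant replicate 2, 1208 and 1028 without triple mutant replicate 3, 1103 and 952 without cpd replicate 1, and 1107 and 1015 without cpd replicate 2. Leaving out replicate 3 of every group gave 1689 higher and 1094 lower. In all 12 alternatives tried, 739 higher and 627 lower genes kept their call, 37.4% of those called. Below, "stable" is used of a gene that kept its call in all 12. Counts of list members at 24 days with BL stand beside the shares over all genes tested, 9.62% higher and 8.89% lower.

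**Figure D1:**
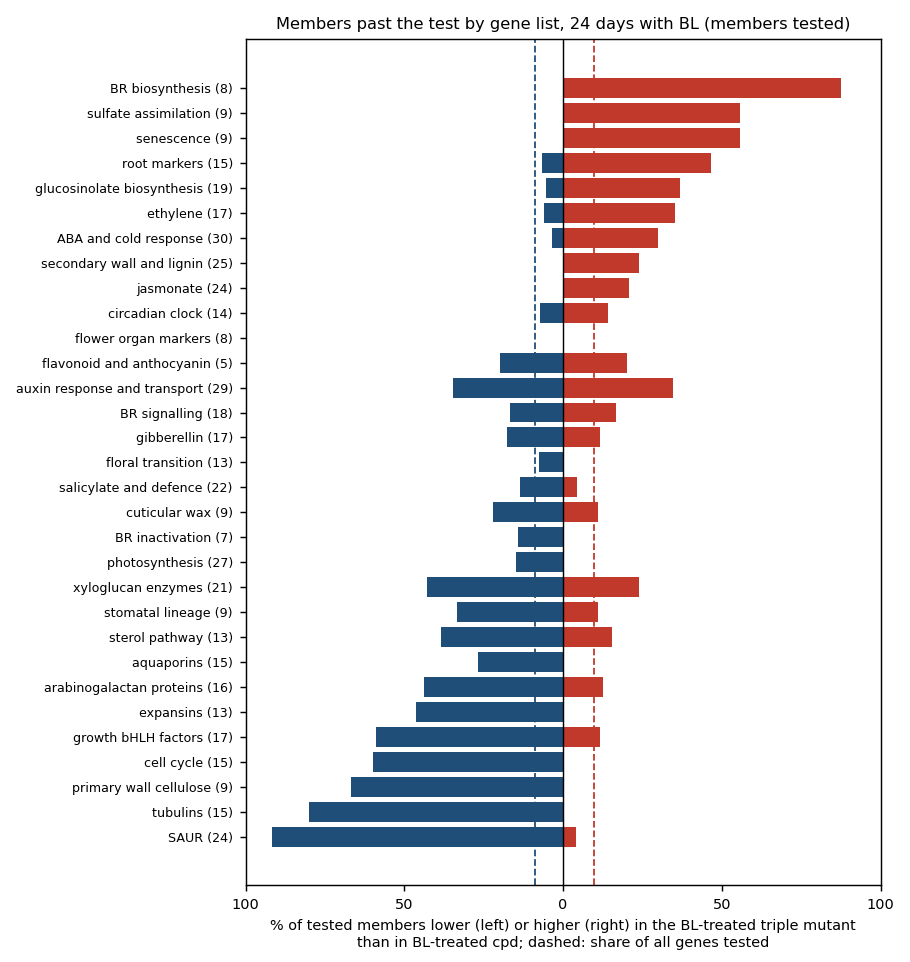
Share of the tested members of 31 gene lists that passed the test (%), lower in the BL-treated triple mutant than in BL-treated cpd to the left (blue) and higher to the right (red), with the number tested in brackets. The dashed lines mark the shares over all genes tested (9.62% higher and 8.89% lower). BR synthesis stands at 87.5% higher, and SAUR genes at 91.7% and tubulins at 80% lower. List members were chosen with earlier results of these data known.

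The mutated genes were examined first. BRI1 (AT4G39400, chromosome 4) had 74, 59.4 and 78.6 CPM in the triple mutant and 118, 107 and 114 CPM in cpd, and the 2 genotypes did not overlap. The difference was log2 -0.68 ± 0.07 SE, with an adjusted p of 0.000149 in the edgeR quasi-likelihood test, Benjamini-Hochberg adjusted. Without BL the means were 65.3 CPM in the untreated triple mutant and 271 CPM in untreated cpd, a difference of log2 -2.05. The gap in BRI1 was thus smaller with BL, by 1.37 ± 0.10 SE on the log2 scale (adjusted p = 4.71e-05 in the same edgeR test). BRL3 (AT3G13380, chromosome 3) had 3.56, 3.74 and 3.07 CPM in the triple mutant and 7.45, 11.2 and 7.67 CPM in cpd, log2 -1.35 ± 0.20 SE with BL and -2.49 without, and its difference of differences had an adjusted p of 0.0348 in the same edgeR test. BRL1 (AT1G55610, chromosome 1) was lower at log2 -0.62 with BL, a call that 4 of the 12 alternatives ended. Of the 100 tested genes closest in locus order to each mutated gene, 20 around BRI1, 18 around BRL1, 15 around BRL3 and 16 around CPD passed the test, 17.2% together against 18.5% of all genes tested. ABI4 (AT2G40220), the transcription factor named in the title of the series, was not detectable at this depth, with 0 counts in each of the 6 libraries and a limit of at most 0.17 CPM.

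Of 8 BR synthesis genes tested, 7 were higher in the BL-treated triple mutant and none was lower. Their median difference was log2 3.25, against -0.0026 over all genes tested. CPD (AT5G05690), the P450 mutated in the cpd line, had 411, 354 and 379 CPM in the triple mutant and 20.9, 19.7 and 25.8 CPM in cpd. This was 17.2-fold higher in the triple mutant, log2 4.11 ± 0.10 SE, with an adjusted p of 1.43e-08 in the edgeR quasi-likelihood test, Benjamini-Hochberg adjusted. Without BL the CPD means were 381 CPM in the untreated triple mutant and 113 CPM in untreated cpd, so that a 3.35-fold difference was present in untreated plants. DWF4, the hydroxylase at the flux-limiting step of the pathway, had 68.8, 59.7 and 65.6 CPM in the triple mutant and 1.22, 1.7 and 1.58 CPM in cpd. BR6OX2, the oxidase that makes BL itself, had 284, 216 and 288 CPM in the triple mutant and 1.37, 1.79 and 2.23 CPM in cpd, a 145-fold difference. For both genes every triple mutant library stood far above every cpd library. Both are among the 12 largest rises, for which groups without overlap were a condition. ROT3 (log2 3.58 ± 0.20 SE) and CYP90D1 (log2 2.18 ± 0.11 SE), hydroxylases of the same pathway, were also higher. BR6OX1 had 25 counts summed over the triple mutant libraries and 3 over the cpd libraries, a ratio of 8.67 with a 95% counting interval of 2.64 to 44.9. The reductase gene DET2 was higher at log2 0.29, and CYP724A1 (-0.52) did not pass. Stable were CPD, DWF4, ROT3, CYP90D1 and BR6OX2.

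Without BL, 2 of the 8 genes passed the test, CPD and CYP90D1 as higher in the triple mutant, against 5.03% of all genes tested in that direction. Untreated means of BR6OX2 were 227 CPM in the untreated triple mutant and 237 CPM in untreated cpd. Those of DWF4 were 72.1 CPM in the untreated triple mutant and 63.1 CPM in untreated cpd, and neither difference passed the test. The genotype difference was larger with BL than without it for 6 of the 8 genes, against 3.33% of all genes tested in that direction and 6.11% in either. For BR6OX2 the difference of differences was log2 7.22 ± 0.25 SE, for DWF4 5.22 ± 0.23 SE and for CPD 2.36 ± 0.13 SE, with 5.17e-06 the largest of the 3 adjusted p-values in the edgeR quasi-likelihood test, Benjamini-Hochberg adjusted.

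Of 7 genes of BR inactivation 1 passed, as lower (14.3%, against 8.89% lower over all genes tested, median log2 -0.23). That gene, BAS1 (AT2G26710), encodes a P450 that inactivates BRs. It had 5.19, 3.92 and 7.06 CPM in the triple mutant and 45, 30.7 and 37.6 CPM in cpd, and was 7.08-fold lower in the triple mutant (log2 -2.82 ± 0.24 SE, adjusted p = 3.49e-05 in the edgeR quasi-likelihood test, Benjamini-Hochberg adjusted). The call was stable. Without BL its means were 5.91 CPM in the untreated triple mutant and 10.3 CPM in untreated cpd, and that difference did not pass. Among 13 genes of the sterol pathway, which supplies the precursors, 2 were higher and 5 were lower. The sterol methyltransferase gene SMT2 was higher at log2 0.47 and stable, whereas the lower calls of FK (-0.55), CAS1 (-0.33) and FPS1 (-0.41) were each ended by 2 to 4 alternatives.

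Among 18 tested genes of BR signalling, 3 were higher and 3 lower (16.7% each, against 9.62% and 8.89% of all genes tested). BEH2 (AT4G36780), whose promoter window is printed above, had 294, 277 and 312 CPM in the triple mutant and 16, 22 and 25.4 CPM in cpd. It was 13.9-fold higher in the triple mutant, log2 3.80 ± 0.16 SE (adjusted p = 3.58e-07 in the edgeR quasi-likelihood test, Benjamini-Hochberg adjusted). Another homologue, BEH1, was higher at log2 0.91, and BES1 itself was lower, with 121, 104 and 104 CPM in the triple mutant and 173, 178 and 195 CPM in cpd (log2 -0.73 ± 0.09 SE). These 3 members of one family thus differed in direction, while BZR1 (-0.16), BEH3 (0.10) and BEH4 (-0.10) did not pass. The kinase gene BIN2 (-0.19), the inhibitor gene BKI1 (-0.13) and the BSK and BSL genes did not pass either. The co-receptor gene BAK1 was higher at log2 0.30, a call that 3 alternatives ended.

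**Figure D2:**
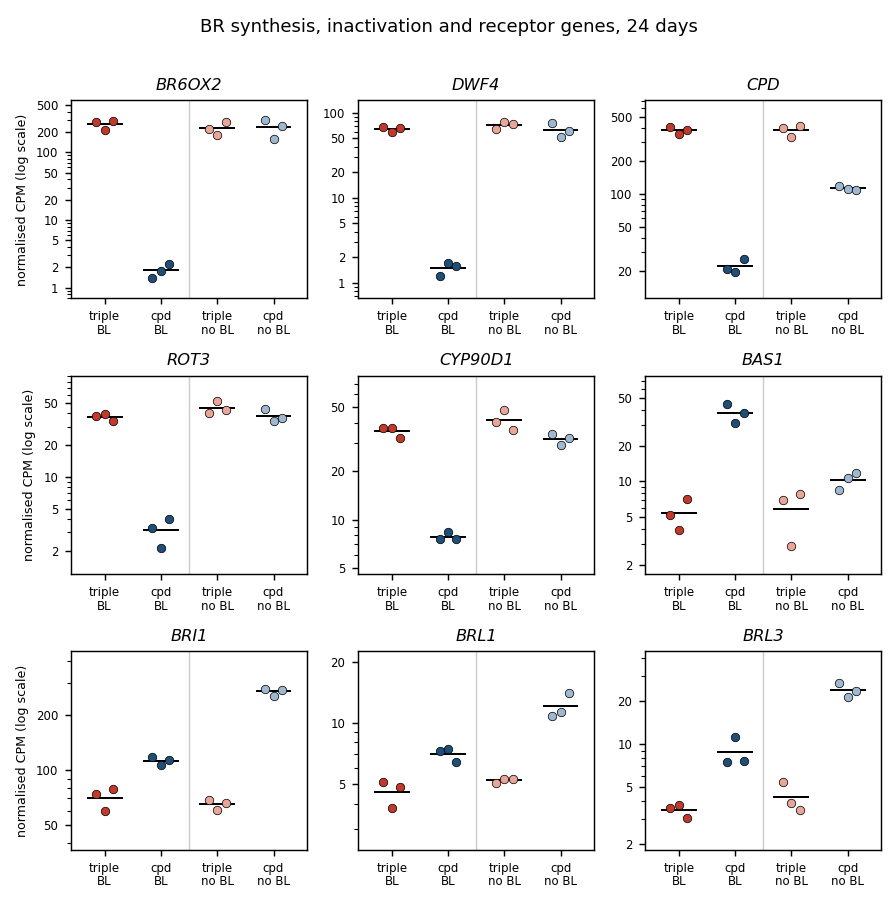
Normalised CPM (log scale) of 9 genes in each of 3 libraries, with a bar at the group mean, for BL-treated triple mutant, BL-treated cpd, untreated triple mutant and untreated cpd seedlings of 24 days. The synthesis genes BR6OX2, DWF4, CPD, ROT3 and CYP90D1 are lowest in BL-treated cpd, where BAS1 is highest. CPD is also lower in untreated cpd than in either triple mutant group, and BRI1 is highest in untreated cpd.

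Growth regulators of the basic helix-loop-helix (bHLH) class were mostly lower in the BL-treated triple mutant, 10 of 17 tested, with 2 higher and a median of log2 -0.66. PRE6 (AT1G26945), a small protein without a DNA-binding domain that promotes elongation by sequestering inhibitors, had 19.1, 18.9 and 9.42 CPM in the triple mutant and 137, 124 and 98.2 CPM in cpd. The difference was log2 -2.99 ± 0.21 SE, 7.95-fold, with an adjusted p of 8.37e-06 in the edgeR quasi-likelihood test, Benjamini-Hochberg adjusted. Its untreated means were 21.4 CPM in the untreated triple mutant and 22.8 CPM in untreated cpd, and the difference of differences was log2 -2.96 ± 0.28 SE (adjusted p = 0.000287 in the same edgeR test). PRE5 was lower at log2 -3.13, from low levels of 0.21, 0.292 and 0.154 CPM in the triple mutant and 2.06, 2.13 and 1.63 CPM in cpd. The 2 higher genes encode inhibitors of elongation. IBH1 had 53.8, 52.5 and 46 CPM in the triple mutant and 20.9, 19.7 and 21.6 CPM in cpd (log2 1.29 ± 0.09 SE), and AIF4 was higher at 1.06. The growth-promoting factor genes HBI1 (-0.66), BEE3 (-0.96), BEE1 (-0.94) and PIF4 (-0.68) were lower, as were AIF1 (-1.13), AIF2 (-0.74) and PAR1 (-0.77), whose products inhibit elongation. All of these but BEE1 and AIF1 were stable.

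SAUR genes are small auxin upregulated transcripts whose products promote cell expansion. The list held 25 of them and not the whole family, chosen with earlier results of these data known. Of 24 listed members tested, 22 were lower and 1 was higher, and 21 of the lower calls were stable. The list's median difference was log2 -3.34 with BL and -0.36 without it, where 6 of the 24 were lower, against 2.18% of all genes tested. SAUR9 (AT4G36110) had 2.99, 3.51 and 2.82 CPM in the triple mutant and 26, 24.3 and 18.6 CPM in cpd, log2 -2.88 ± 0.18 SE. SAUR16 (AT4G38860) had 2.36, 1.93 and 1.84 CPM in the triple mutant and 16.5, 15.2 and 14.6 CPM in cpd, log2 -2.91 ± 0.22 SE, and the adjusted p of both was at most 1.57e-05 in the edgeR quasi-likelihood test, Benjamini-Hochberg adjusted. In each case all cpd libraries stood above all triple mutant libraries, which the rule for the 12 largest falls required of both. SAUR10 had 3 counts summed over the triple mutant libraries and 267 over the cpd libraries, a ratio of 85.6 in favour of cpd with a 95% counting interval of 29 to 418. SAUR68 had 1 count in the triple mutant and 111 in cpd, a ratio of 107 with an interval of 18.8 to 4250. Members of the near-identical groups SAUR19 to SAUR24 and SAUR61 to SAUR68 may share reads, and their single values are uncertain. From these groups SAUR62 (log2 -3.89), SAUR22 (-3.20) and SAUR66 (-2.96) were among the 12 largest falls. The exception was SAUR36, higher at log2 1.83 and stable, which is known from leaf senescence. Against 2.78% of all genes tested, 17 of the 24 had a genotype difference that was lower with BL than without.

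Cell wall genes followed with smaller differences and in both directions. Of 13 expansin genes, whose products loosen walls, 6 were lower and none was higher (median log2 -0.56). EXPA8 had 1.57, 1.75 and 1.84 CPM in the triple mutant and 10.2, 8.67 and 11 CPM in cpd (log2 -2.53 ± 0.24 SE), and EXPA11 was lower at log2 -1.84. Xyloglucan endotransglucosylase/hydrolase (XTH) genes, whose products cut and rejoin wall xyloglucan, were lower for 9 and higher for 5 of 21 (median log2 -0.08). XTH8 had 8.23, 8.88 and 10.5 CPM in the triple mutant and 63.2, 42.1 and 45.6 CPM in cpd (log2 -2.44 ± 0.20 SE), and XTH17 (-2.82), XTH33 (-1.30) and XTH4 (-1.22) were lower too. XTH15 had 1665, 949 and 1769 CPM in the triple mutant and 421, 256 and 515 CPM in cpd and was 3.7-fold higher (log2 1.89 ± 0.11 SE). XTH24 was higher at 1.15. Replicate 2 had the lowest XTH15 level within each genotype, and the groups still did not overlap. XTH4, XTH8, XTH15, XTH17, XTH24 and XTH33 were stable, so members of one family stood on both sides.

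Genes of the primary wall's cellulose machinery were lower for 6 of 9 and higher for none (median log2 -0.37). The synthase gene CESA5 was lower at log2 -0.93, COB, which orients cellulose deposition, at -0.67, and CSI1, which links synthases to microtubules, at -0.37. Tubulin genes, which encode the subunits of those microtubules, were lower for 12 of 15 (median log2 -0.51). TUB1 had 4.35, 3.86 and 4.25 CPM in the triple mutant and 24.9, 19.9 and 19.2 CPM in cpd (log2 -2.35 ± 0.24 SE, adjusted p = 0.000115 in the edgeR quasi-likelihood test, Benjamini-Hochberg adjusted), and its libraries did not overlap. TUB8 (-1.02), TUB5 (-0.99) and TUB6 (-0.95) followed, and 9 tubulin genes were stable. For 10 of the 15 the genotype difference was lower with BL than without it, and without BL none of the 15 passed. Arabinogalactan protein genes, which encode glycoproteins of the cell surface, were lower for 7 and higher for 2 of 16 (median log2 -0.42). AGP4 had 13.6, 13.6 and 21.6 CPM in the triple mutant and 85.1, 78.8 and 102 CPM in cpd (log2 -2.46 ± 0.16 SE), AGP9 was lower at -1.67 and AGP10 was higher at 1.09. In the secondary wall and lignin list 6 of 25 genes were higher and none lower (median log2 0.11), and the cellulose synthase genes CESA4 (-0.36), CESA7 (0.11) and CESA8 (0.08) did not pass. Those 6 were genes of the phenylpropanoid and monolignol route and MYB63, and of them CCoAOMT1 (0.80) was stable. Without BL 5 of the 25 were higher (median log2 0.15), and for none did the difference of differences pass. Of 15 aquaporin genes 4 were lower (26.7%, against 8.89% of all genes tested), with PIP2A at -0.53 and PIP3 at -0.50.

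**Figure D3:**
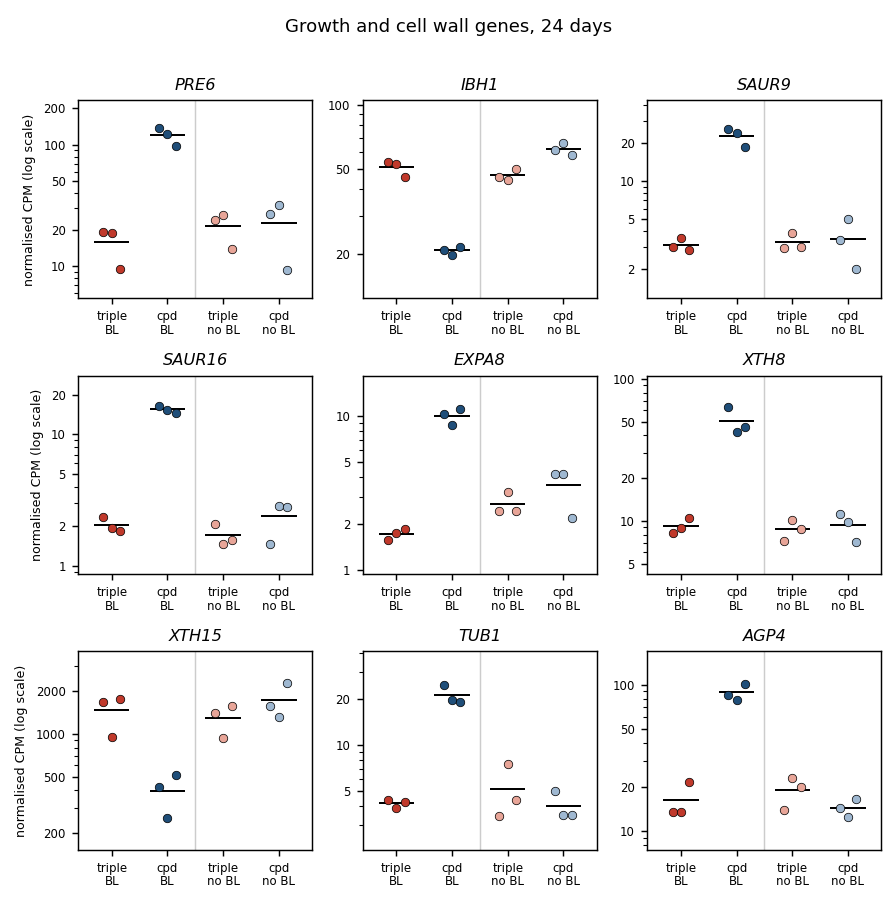
Normalised CPM (log scale) of 9 growth and cell wall genes in each of 3 libraries, with a bar at the group mean, for BL-treated triple mutant, BL-treated cpd, untreated triple mutant and untreated cpd seedlings of 24 days. PRE6, SAUR9, SAUR16, EXPA8, XTH8, TUB1 and AGP4 are high in BL-treated cpd alone of the 4 groups, whereas IBH1 and XTH15 are low there.

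Division genes were lower for 9 of 15 and higher for none (median log2 -0.58). CYCD3;1, a D-type cyclin that drives entry into the cycle, had 19, 15 and 22 CPM in the triple mutant and 27.1, 26.6 and 32.8 CPM in cpd (log2 -0.64 ± 0.08 SE). The replication licensing genes MCM4 (-0.92), MCM3 (-0.77), MCM5 (-0.54) and PRL (-0.77), which encode subunits of one helicase, were lower and stable. The mitotic genes CYCB1;1 (-0.29), CDKB1;1 (-0.42) and AUR1 (-0.29) did not pass, whereas KN, which acts in cytokinesis, was lower but not stable. In the stomatal lineage list 3 of 9 were lower and 1 higher (median log2 -0.52). SPCH, which starts the lineage, had 9.9, 7.65 and 7.27 CPM in the triple mutant and 17.4, 15.1 and 16.5 CPM in cpd (log2 -0.98 ± 0.14 SE), ER was lower at -0.58, and FAMA, which acts in guard cell differentiation, was higher at 0.37. The summed lineage markers ranged from 151 to 198 CPM in the triple mutant and from 236 to 245 CPM in cpd, without overlap. Much of each sum was ER alone, with means of 103 CPM in the BL-treated triple mutant and 153 CPM in BL-treated cpd. The sums did not overlap without BL either, at 164 to 181 CPM in the untreated triple mutant and 193 to 206 CPM in untreated cpd. The part of the stomatal lineage in these results was not tested.

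Among other hormone pathways, auxin genes were split, with 10 of 29 higher and 10 lower (median log2 -0.12). GH3.17 (AT1G28130), whose product conjugates auxin to an amino acid, had 47.6, 54.2 and 55 CPM in the triple mutant and 5.49, 7.31 and 7.07 CPM in cpd (log2 2.98 ± 0.15 SE, adjusted p = 1.22e-06 in the edgeR quasi-likelihood test, Benjamini-Hochberg adjusted). WES1, of the same enzyme family, was higher at 1.71, and the influx carrier gene LAX3 at 2.06. Of the Aux/IAA repressor genes, IAA2 (0.94), AXR2 (1.11) and IAA16 (0.92) were higher, whereas IAA19 (-1.83), SHY2 (-1.44) and IAA4 (-0.98) were lower. These 6 were stable. The auxin synthesis gene TAA1 was lower at -0.85. Outside the list, HAT1, a homeodomain-leucine zipper transcription factor gene, had 115, 99.5 and 104 CPM in the triple mutant and 15.3, 13.7 and 14.2 CPM in cpd (log2 2.88 ± 0.08 SE), while its relative HAT2, a list member, was lower (-0.64).

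Ethylene synthesis genes held the largest rise among genes with a symbol and a mean of at least 5 CPM. ACS11 (AT4G08040) had 52.3, 46.4 and 52.2 CPM in the triple mutant and 0.106, 0.0968 and 0.109 CPM in cpd. The cpd values lay below the limit that a count of 0 allows, and the fitted log2 of 8.83 rests on 6 counts summed over those 3 libraries. Untreated means were 48.7 CPM in the untreated triple mutant and 20.4 CPM in untreated cpd, a difference of log2 1.27 (adjusted p = 0.00291 in the edgeR quasi-likelihood test, Benjamini-Hochberg adjusted). ACS7 was higher at log2 1.64. Other synthase genes went the other way, since ACS4 had 0.838, 0.935 and 0.41 CPM in the triple mutant and 7.29, 6.68 and 6.25 CPM in cpd (log2 -3.23 ± 0.24 SE) and ACS5 had 0 counts in the triple mutant against 58 in cpd, at least 18.6-fold lower with the floor of 3 counts set over the group. In all, 6 of 17 ethylene genes were higher (35.3%, against 9.62% of all genes tested) and 1 lower (5.88%, against 8.89%). ACS5 was not among those tested.

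Of 30 genes of abscisic acid and cold response, 9 were higher and 1 lower (median log2 0.29). ABI5, a transcription factor of the abscisic acid response, had 13.5, 17.4 and 14 CPM in the triple mutant and 5.12, 5.57 and 5.76 CPM in cpd (log2 1.44 ± 0.17 SE), and the phosphatase gene HAI1 was higher at 1.19. KIN1 had 48.9, 119 and 34.1 CPM in the triple mutant and 20.1, 37.3 and 14.7 CPM in cpd, with replicate 2 the highest in both genotypes and overlap between them. Its call (log2 1.40) was ended by 1 alternative. Gibberellin genes gave 2 higher and 3 lower of 17 (11.8% and 17.6%, against 9.62% and 8.89% of all genes tested). The synthesis gene GA20OX1 stood at -2.38 and GASA6 at -1.64. Jasmonate genes gave 5 of 24 higher (median log2 0.45), none of them stable, and 8 higher without BL. In glucosinolate synthesis 7 of 19 were higher and 1 lower, led by MYB122, a regulator of the indole branch (22.4, 16.8 and 28.9 CPM in the triple mutant and 7.03, 7.8 and 10.7 CPM in cpd, log2 1.40 ± 0.11 SE). Without BL 5 of the 19 glucosinolate genes were higher (median log2 0.44, against 0.49 with BL). Sulfate assimilation genes were higher for 5 of 9, with APR1 at 0.53, APS1 at 0.60 and SULTR2;1 at 0.45. Senescence genes were higher for 5 of 9, with the regulator NAC6 at 0.53 and PAO, an enzyme of chlorophyll breakdown, at 0.39.

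The remaining lists held at most 2 stable calls each, and their counts stand against 9.62% higher and 8.89% lower over all genes tested. Of 27 photosynthesis genes 4 were lower and none higher, and of these RBCS1B (-1.05) and RBCS2B (-0.68) belong to a cluster of near-identical copies whose single values are uncertain. In salicylate and defence 1 of 22 was higher, WRKY40 at log2 1.86, and 3 were lower, none of those stable. The clock gave 2 higher and 1 lower of 14, none stable, and the floral transition list gave SOC1 alone as lower, at -0.56 (1 of 13). Cuticular wax gave 1 higher and 2 lower of 9, and flavonoid synthesis 1 of each among 5 tested, and none of these calls was stable.

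The remaining genes among the 12 largest rises and falls belong to no pathway list. MYB55, a MYB transcription factor gene, had 19, 13.8 and 20.7 CPM in the triple mutant and 0.106, 0 and 0.381 CPM in cpd (log2 6.78 ± 0.30 SE), with 2 of the cpd libraries below the limit that a count of 0 allows. TPD1, which encodes a secreted ligand known from anther development, was higher at log2 2.48, the subtilase gene ATSBT5.2 at 2.45 and the ubiquitin ligase gene PUB25 at 2.28. On the side of the falls, SBP3, which encodes a selenium-binding protein, had 0.995, 1.23 and 1.02 CPM in the triple mutant and 9.51, 9.3 and 10.3 CPM in cpd (log2 -3.17 ± 0.23 SE). RGF6, which encodes a peptide of the root meristem growth factor family, had 5.08, 4.09 and 3.69 CPM in the triple mutant and 29.9, 25.8 and 21.4 CPM in cpd (log2 -2.58 ± 0.16 SE). For these 6 genes, libraries without overlap between the genotypes were a condition of being picked and are no separate result.

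The same genotypes were set against each other without BL. Without BL, 992 genes (5.03% of those tested) were higher and 430 (2.18%) lower in the triple mutant, together 7.21%. Of the 1899 genes that were higher with BL, 407 were also higher without it (21.4% of the first and 41% of the second set). Of the 1755 lower with BL, 138 were also lower without it (7.86% and 32.1%). CPD, BRI1, BRL3 and ACS11 were in both sets, as were SAUR62 (-1.22 without BL), SAUR66 (-1.59), WRKY40 (1.39) and MYB51 (0.69 without BL and 0.63 with it). IBH1 and XTH15 were on opposite sides, at -0.41 and -0.40 without BL and 1.29 and 1.89 with it. The untreated counts depended on single libraries, with 155 higher and 22 lower without untreated triple mutant replicate 1, 205 and 26 without its replicate 2, 1740 and 984 without its replicate 3, 454 and 192 without untreated cpd replicate 1, and 127 and 16 without its replicate 2. Without the term for the replicate number they were 156 and 50.

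**Figure D4:**
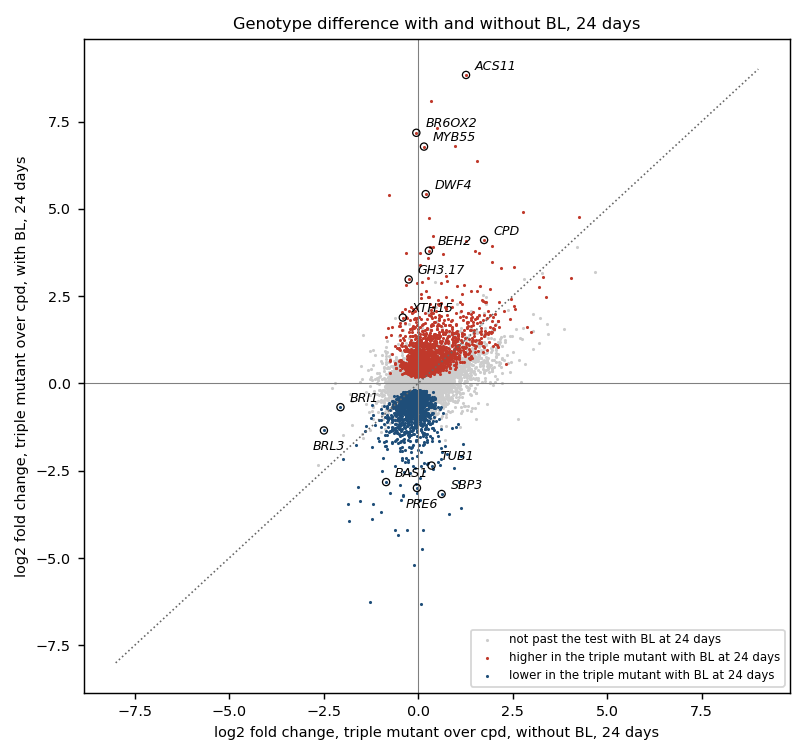
Log2 fold change of the triple mutant over cpd at 24 days with BL (vertical) against that without BL (horizontal), one point per gene tested, red or blue where higher or lower past the test with BL, and a dotted line of equality. BR6OX2 (7.18 with BL, -0.05 without), DWF4, MYB55 and PRE6 lie near the vertical axis, and CPD and BRI1 also differ without BL.

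Seedlings of 7 days, which share no library with those of 24 days, gave the same comparison at another age. There 53.4% of 18378 genes tested passed, in libraries whose fitted spread between replicates was small (coefficient of variation 2.01%, against 11% at 24 days). Counts of 2 replicates gave a chi-square per degree of freedom of 1.13 to 1.51 at 7 days, against 6.38 to 59.1 at 24 days. The 7-day replicates thus differed by little more than counting error. Calls at 7 days may therefore rest on technical spread only. Of the 370 genes at least 2-fold higher at 24 days and tested at 7 days, 315 were also higher at 7 days and 3 were lower. Of the 240 at least 2-fold lower, 219 were also lower at 7 days and 2 were higher. Of the synthesis genes, BR6OX2 had a log2 difference of 7.23 at 7 days and 7.18 at 24 days. For DWF4 it was 5.23 at 7 days and 5.42 at 24 days, and for CPD 5.21 at 7 days and 4.11 at 24 days. Of the growth genes, PRE6 was lower at both ages, with log2 -5.94 at 7 days and -2.99 at 24 days. The expansin gene EXPA11 had -4.66 at 7 days and -1.84 at 24 days. The difference between ages was not tested. By list, 22 of 24 SAUR genes, 14 of 15 tubulin genes and 9 of 9 primary wall cellulose genes were lower at 7 days, against 25.9% of all genes tested at that age. Jasmonate genes, with 5 higher and none lower at 24 days, gave 8 higher and 13 lower of 25 at 7 days, and glucosinolate genes gave 2 higher and 9 lower of 19. All 9 senescence genes tested at 7 days and 7 of 9 sulfate assimilation genes were higher there, against 27.5% of all genes tested.

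**Figure D5:**
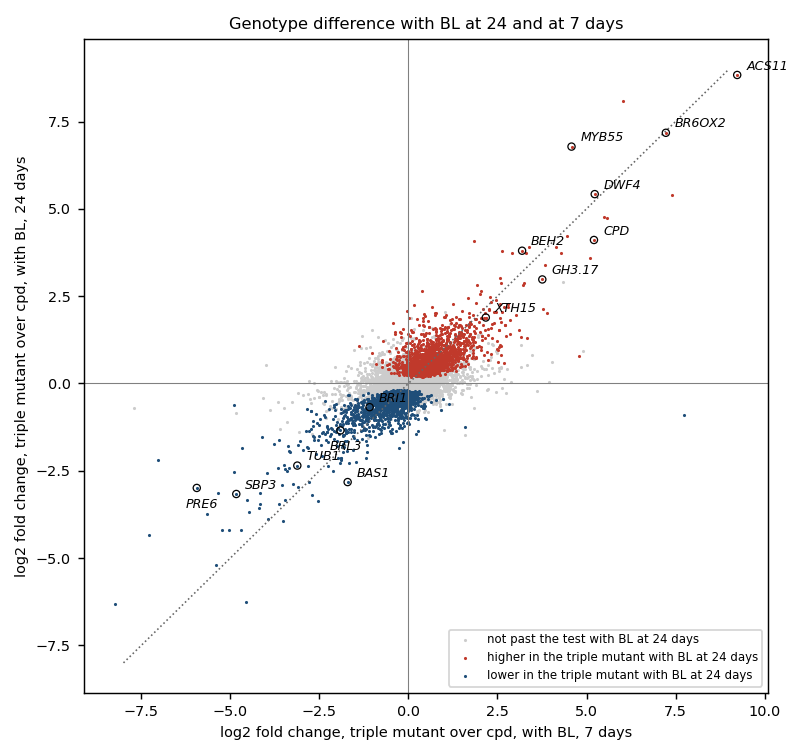
Log2 fold change of the triple mutant over cpd with BL at 24 days (vertical) against that at 7 days (horizontal), one point per gene tested at both ages, coloured by the test at 24 days, with a dotted line of equality. BR6OX2 and DWF4 lie close to the line, the place of ACS11 rests on cpd libraries with few or 0 counts at both ages, and PRE6 (-2.99 at 24 days, -5.94 at 7 days) lies farther from 0 at 7 days.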

How the data were processed

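Seedling mRNA was sequenced from libraries made with an Illumina TruSeq kit from Trizol-extracted RNA, per the labels' protocols. The authors deposited read counts per gene locus as whole numbers in 1 table. The submitters' processing notes name Trimmomatic 0.36, HISAT2 2.1.0 and HTSeq 0.9.1, and TAIR10 as the build, without their roles or settings. Neither the annotation release nor whether counting used strand is stated, so genes that overlap can hold each other's reads. For the first allele the genotype label has brl1-701, whereas the design text, used here, has bri1-701.

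The 12 libraries of 24 days were fitted with edgeR 4.0.16 in R 4.3.3 (TMM factors, filterByExpr with a minimum count of 10, cell means plus replicate number as a block). Contrasts are triple mutant minus cpd, tested by quasi-likelihood with p-values adjusted over all genes (Benjamini-Hochberg, threshold 0.05). The 7-day libraries were fitted apart without a block. Deviations of same-numbered BL-treated libraries from their group means correlated at 0.18, 0.61 and 0.32, of untreated ones at 0.12, 0.41 and 0.43, and all 12 libraries correlated best with their own number. The replicate numbers come from the sample titles. That libraries of one number belong together is not stated there and is seen only in these correlations. The SE is the log2 fold change over the square root of F. CPM use the TMM-scaled library sizes.

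Members of 31 gene lists were chosen with earlier results of these data known. Of 548 written members, 542 matched the reference (TAIR10.1) by symbol and locus and 6 were left out. Named genes are the mutated genes and ABI4, the 12 largest rises and 12 largest falls that passed (symbol known, groups without overlap, mean of 5 CPM or more), and from each list up to 4 called members, taken by smallest adjusted p. Other list members are named to show a family's spread, chosen after their values were seen. Promoter windows were read from TAIR10.1 by its own annotation, and loci were joined by identifier only. The test with BL at 24 days was also run on simulated counts that held no effect of the replicate number. It recovered 85% of 100 changes of log2 1 and 37% of 100 changes of log2 0.5, in either direction. Of 129 genes called there, 5.43% were false. A gene that did not pass may thus still differ by a small amount. Alternatives were DESeq2 1.42.0, its size factors, no filter, no block, no replicate 3, the 6 BL-treated libraries alone, and leaving out each library.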

Additional observations from a re-analysis of the deposited data

Results flagged for a closer look

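The genotype difference was higher with BL than without it for 657 genes and lower for 548, 6.11% of those tested, by a test of the difference itself in edgeR. Single libraries moved these counts. The higher count was 336 and 330 without BL-treated triple mutant replicates 2 and 3, 362 and 409 without BL-treated cpd replicates 1 and 2, 430 without untreated triple mutant replicate 2 and 387 without untreated cpd replicate 1. The lower count was 340, 244 and 237 without BL-treated triple mutant replicates 1, 2 and 3, 278 without BL-treated cpd replicate 1, 360 and 312 without untreated triple mutant replicates 1 and 2, and 321 and 318 without untreated cpd replicates 1 and 2.

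Among the list members, 3 passed the test at both ages with opposite signs and no overlap between the genotypes at either age, and the difference between ages was not tested. GASA4, of a gibberellin-responsive family, was higher in the BL-treated triple mutant at log2 0.31 at 24 days and lower at 7 days (-0.49), and its call at 24 days was ended by 7 alternatives. VSP1, a storage protein gene of the jasmonate response, was higher at 1.02 at 24 days and lower at 7 days (-0.35), and its call was ended by 1 alternative. HAT2, a transcription factor gene of the auxin list, was lower (-0.64) at 24 days, a call kept in all 12 alternatives, and higher at 7 days (0.48).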

How the results depend on the processing

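Most named genes were picked because they passed the test with BL at 24 days, and the alternatives reuse the same libraries. A change of direction was therefore unlikely beforehand, and none of the 123 named genes changed direction in an alternative. Their call was lost for 24 without the replicate block, 12 without replicate 3 in every group, 4 in DESeq2, 1 without the filter, 0 with DESeq2 size factors, 2 of 121 in the 6 BL-treated libraries alone, and 10 to 22 with 1 BL-treated library left out. Without the replicate block, and so without the pairing, 1104 genes were higher and 1081 lower with BL, 51 list members were higher, 11% of the neighbours of the mutated genes passed, 156 and 50 genes were higher and lower without BL, and 314 and 229 had a higher or lower difference with BL than without. Without replicate 3 in every group the lower count with BL was 1094, the neighbours' share 12.5%, the counts without BL 1676 and 737, and those of the difference of differences 421 and 322. Leaving out 1 library at a time gave 1103 to 1844 higher and 843 to 1561 lower with BL, 356 to 600 and 225 to 308 by at least 2-fold, 58 to 90 and 92 to 111 list members, 9.75% to 15.8% of neighbours, 127 to 1740 and 16 to 984 without BL, 330 to 791 and 237 to 773 for the difference of differences, and 4611 to 4758 and 4345 to 4601 at 7 days. The causes of these shifts were not tested. At 7 days the replicate block gave 5069 higher and 4767 lower, against 5057 and 4761 without it. With 3 libraries a side, small differences at 24 days may be missed, and genes with few counts have wide intervals.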

Other observations

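Further families, chosen after their values were seen, stood apart in the same comparison. FLA genes encode fasciclin-like arabinogalactan proteins of the cell surface. Of 12 tested outside the lists, 8 were lower in the BL-treated triple mutant and none higher, against 8.89% lower over all genes tested. Without BL none passed. FLA9 had 130.2, 123 and 139 CPM in the triple mutant and 279, 243 and 318 CPM in cpd (log2 -1.09 ± 0.08 SE) and FLA7 had 18.3, 16.6 and 18.2 CPM in the triple mutant and 49.9, 36.6 and 45.2 CPM in cpd (log2 -1.31 ± 0.16 SE). Of 8 tested genes of the SKU5-similar family, 4 were lower and none higher, against the same share of 8.89%. In this family sks4 had 21.4, 15.8 and 24.8 CPM in the triple mutant and 50.7, 43.4 and 58.4 CPM in cpd (log2 -1.31 ± 0.09 SE). SAUR26 to SAUR29, 4 related genes on chromosome 3 outside the SAUR list, were all lower with BL and none passed without it. SAUR26 had 0.21, 0.234 and 0 CPM in the triple mutant and 3.43, 3.68 and 1.79 CPM in cpd, close to the limit that a count of 0 allows in the triple mutant. RGF9, which encodes a root meristem growth factor peptide, had 0.367, 0.292 and 0.154 CPM in the triple mutant and 4.17, 3.73 and 2.61 CPM in cpd (log2 -3.67 ± 0.37 SE).

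Ethylene response factor genes went the other way. Of 17 tested ERF genes outside the lists, 8 were higher in the triple mutant with BL and none lower, and 8 were higher without BL. Over all genes tested, 9.62% were higher with BL and 5.03% without it. ERF6 had 102, 115 and 80.3 CPM in the triple mutant and 28.1, 31.2 and 41.7 CPM in cpd, log2 1.54 ± 0.21 SE with BL and 1.39 without it. STZ, a zinc finger transcription factor gene of stress responses, had 474, 431 and 448 CPM in the triple mutant and 91.2, 158 and 204 CPM in cpd, log2 1.60 ± 0.26 SE with BL and 1.66 without it. ERF12 had 8.02, 6.54 and 9.83 CPM in the triple mutant and 0.74, 1.4 and 1.09 CPM in cpd, log2 2.87 ± 0.24 SE with BL, and its difference without BL (0.61) did not pass. At 7 days 10 of 16 ERF genes were higher and 4 lower, against 27.5% and 25.9% of all genes tested at that age.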
